A study of Rattus norvegicus with 18 samples.

Results

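The genes described here encode the subunits of oxidative phosphorylation, the inner-membrane machinery that turns the oxidation of fuel into ATP, in rat kidney. The rule took the protein-coding rows on the mitochondrial chromosome and the nuclear rows whose names begin as those of the subunits of complexes I to V do. It found 99 members among 32116 rows, of which 13 were mitochondrial and 86 nuclear, and 87 members were expressed highly enough to be tested. Of the nuclear members, 38 belong to complex I, 4 to complex II, 8 to complex III, 19 to complex IV and 17 to complex V.

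Kidney RNA of 3 groups of rats was sequenced, with 6 libraries in each group. SZ rats received adenine at 100 mg/kg per day together with SZ-A at 300 mg/kg per day, CKD rats received adenine at 100 mg/kg per day alone, and NC rats were untreated. Adenine is a purine whose oxidation product crystallises in the tubules, and feeding it is a common way to model chronic kidney disease. Nothing in the labels ties a library to an animal of its own, so p-values here reflect library-to-library spread, which may be technical. Strain, sex, age and duration were not used here.

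In the respiratory chain, complexes I and II pass electrons from NADH and succinate to ubiquinone, complex III passes them on to cytochrome c, complex IV hands them to oxygen, and complex V makes ATP from the proton gradient that complexes I, III and IV build. Mitochondrial DNA encodes a core of hydrophobic subunits of complexes I, III, IV and V, transcribed as long precursors that are cut into single mRNAs. All subunits of complex II and most of the others come from nuclear genes. In the kidney the proximal tubule and the thick ascending limb, which reabsorb most of the filtered salt, are known to be rich in mitochondria.

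All levels are FPKM (fragments scaled by gene length and library size), and every fold change is a difference in log2(FPKM + 1) with its standard error (SE). A gene was called when limma's adjusted p over all 13851 tested genes was under 0.05. Recovered reads numbered 15354358 to 18532375 per library, so depth was alike. The library size behind the deposited FPKM was not this total. It was 0.97 to 1.12 times the total in SZ libraries, 1.02 to 1.26 times in CKD libraries and 0.86 to 0.95 times in NC libraries. Deposited levels of CKD against NC therefore read lower than levels on plain library totals. Libraries did differ in how their levels leaned on gene length. The deviation of a library from the mean of all libraries changed by -0.31, -0.25 and -0.21 log2 units per doubling of length in CKD 5, SZ 3 and CKD 2, by -0.10 in CKD 1, and by 0.01 to 0.11 in the other 14 libraries. Short mRNAs therefore read relatively high in those 4 libraries. The tested nuclear members are short, with a median length of 1202 bases against 2832 bases for all tested genes, so counts of members in CKD against NC are given also after a correction for gene length. Nephron markers were abundant: the summed level of 13 proximal tubule genes was 3329 to 4852 FPKM in SZ libraries, 1244 to 3317 FPKM in CKD libraries and 4902 to 5855 FPKM in NC libraries. None of 7 heart and muscle genes and none of 4 adrenal genes reached the level needed for testing.

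In CKD kidneys most mitochondrial mRNAs fell, and so did some of the nuclear subunit mRNAs. Of 13 mitochondrial genes 12 were called lower in CKD than in NC and none higher, with a median change of -1.38, where 26.0% of all tested genes were called lower, 24.4% higher, and the median of all tested genes was -0.04. Of 74 tested nuclear members 31 were called lower and 1 higher, with a median change of -0.36. When libraries were scaled to a fixed FPKM sum (TPM), this median was 0.076 and that of all tested genes 0.34. In SZ kidneys 1 mitochondrial gene and 1 nuclear member were called higher than in CKD, where 4.16% of all tested genes were. Fewer cells of a type and less RNA per cell cannot be told apart in whole kidney.

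**Figure D1:**
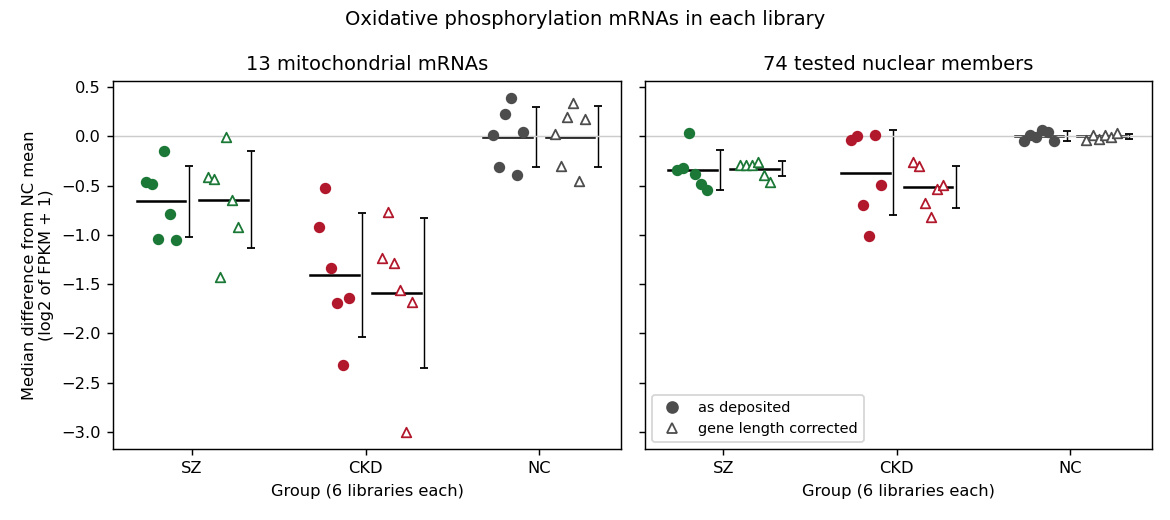
Median difference of each library from the NC mean, in log2(FPKM + 1), over the 13 mitochondrial mRNAs (left) and the 74 tested nuclear members (right), for the SZ, CKD and NC groups. Filled circles are the deposited values, open triangles the values after the gene length correction, bars the group means and whiskers the SD (n = 6 libraries each). As deposited, SZ 3, CKD 1, CKD 2 and CKD 5 lie near 0 for the nuclear members, and after the correction every SZ and CKD library lies below 0.

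The library medians show where the nuclear members varied. As deposited, the median nuclear member differed from the NC mean by -0.34, -0.32, 0.03, -0.38, -0.49 and -0.54 in SZ 1 to SZ 6 and by -0.04, 0.01, -0.70, -1.01, 0.01 and -0.49 in CKD 1 to CKD 6, while NC libraries lay between -0.05 and 0.07. SZ 3, CKD 1, CKD 2 and CKD 5, the libraries with the length slopes, stood apart from the rest of their groups. After the length correction the medians were -0.46 to -0.26 in SZ libraries, -0.82 to -0.26 in CKD libraries and -0.04 to 0.04 in NC libraries, so that neither SZ nor CKD overlapped with NC. The mitochondrial mRNAs were lower than the NC mean in all 6 CKD libraries, with library medians of -2.33 in CKD 5 to -0.53 in CKD 2, against -0.39 to 0.39 in NC libraries. In SZ libraries the same medians were -1.05 to -0.15. Residual ribosomal RNA took 93.8 to 248 ppm of reads in SZ libraries, 70.9 to 1741 ppm in CKD libraries and 65.8 to 154 ppm in NC libraries. CKD 5 and CKD 6, at 1741 and 809 ppm, had the highest values, and the part of this in the mitochondrial levels was not tested.

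The balance of the genomes also differed among libraries. Reads of the 13 mitochondrial mRNAs outnumbered those of all nuclear members 5.97 to 13.4 times in SZ libraries (median 9.79), 3.43 to 9.41 times in CKD libraries (median 7.66) and 8.50 to 15.7 times in NC libraries (median 12.2). The lowest ratios of the SZ and CKD groups came from SZ 3 and CKD 5, in which mitochondrial mRNAs took 11.0% and 5.75% of reads, the lowest share of each group, and nuclear members 1.84% and 1.68%. The ranges of all groups overlapped. No p is given for these sums, since they are scores over the members.

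Mitochondrial DNA encodes 7 subunits of complex I, and 6 of them fell. Mt-nd4, a core membrane subunit in the proton-pumping arm (positions 10160 to 11537 of the mitochondrial chromosome, build mRatBN7.2, as for all gene positions here), ranged from 6067 to 12965 FPKM in SZ libraries (median 9058), from 1605 to 7921 FPKM in CKD libraries (median 4942) and from 10488 to 18390 FPKM in NC libraries (median 14282). No CKD library reached the lowest NC library, and the lowest CKD value was that of CKD 5. The change of Mt-nd4 in CKD against NC was -1.67 ± 0.33 (SE, limma adjusted p = 0.000426). Mt-nd2, Mt-nd5 and Mt-nd4l, other membrane subunits of complex I, changed by -1.85, -1.75 and -2.02, and Mt-nd1 by -1.37, all called. Mt-nd4l shares a few bases with Mt-nd4, so reads in that overlap cannot be assigned to either.

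Mt-nd6 is the only one of the 13 mRNAs read from the other strand (positions 13543 to 14061), and its end overlaps that of Mt-nd5. It ranged from 1501 to 2531 FPKM in SZ libraries (median 1838), from 923 to 2638 FPKM in CKD libraries (median 1019) and from 2125 to 3997 FPKM in NC libraries (median 3257). Only CKD 2, at 2638 FPKM, stood among the NC values. Its change was -1.38 ± 0.24 in CKD against NC (limma adjusted p = 0.000141). The sources do not say whether counting used strand, so antisense reads cannot be told apart from Mt-nd6.

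Mt-nd3, a short complex I subunit of 348 bases, was the mitochondrial gene that was not called. It measured 2029 to 3172 FPKM in SZ libraries (median 2450), 1273 to 4667 FPKM in CKD libraries (median 2636) and 3131 to 4285 FPKM in NC libraries (median 3938). CKD 1 and CKD 2 were as high as NC while CKD 4 and CKD 6 were far below, and the change was -0.58 ± 0.28 (limma adjusted p = 0.0894). After the length correction it was -0.95 (limma adjusted p = 0.00273), and then all 13 mitochondrial genes were called lower, with a median of -1.61, against 24.6% of all tested genes lower and 29.6% higher.

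Cytochrome b and the complex IV core followed. Mt-cyb, a haem-bearing subunit of complex III, ranged from 7292 to 15102 FPKM in SZ, from 3100 to 10890 FPKM in CKD and from 13333 to 22338 FPKM in NC libraries, with a change of -1.46 ± 0.31 in CKD against NC (limma adjusted p = 0.000844). Mt-co1, the catalytic subunit of complex IV and the member with the highest level, ranged from 18335 to 40729 FPKM in SZ, from 9198 to 32951 FPKM in CKD and from 37751 to 61351 FPKM in NC libraries. CKD and NC did not overlap for either gene, and SZ overlapped with both groups. The change of Mt-co1 in CKD against NC was -1.28 ± 0.37 (limma adjusted p = 0.00788). Mt-co3 and Mt-co2 changed by -1.23 and -0.75, the second with a limma adjusted p of 0.0407. The call of Mt-co2 was lost with TPM (-0.29), on plain library totals (-0.40), in the fit of CKD and NC alone (-0.75) and without CKD 4 (-0.62), among other left-out libraries.

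The mitochondrial complex V genes sit in a shared transcript with overlapping reading frames, Mt-atp8 at positions 7758 to 7961 and Mt-atp6 at 7919 to 8599. Mt-atp8 had 121, 159, 187, 378, 327 and 358 FPKM in SZ 1 to SZ 6, against 206, 83.4, 33.8, 32.8, 69.0 and 57.1 FPKM in CKD 1 to CKD 6 and 154, 158, 283, 506, 293 and 537 FPKM in NC 1 to NC 6. All CKD libraries but CKD 1 lay below every other library. It was the mitochondrial gene with the largest change in CKD against NC, -2.12 ± 0.43 (limma adjusted p = 0.000506), and it rose in SZ against CKD by 1.82 ± 0.43 (limma adjusted p = 0.0151). Mt-atp6, the proton channel subunit, changed by -1.32 in CKD against NC (limma adjusted p = 0.00339). Mt-atp8 is 204 bases long and its level was far below that of Mt-atp6, so its FPKM depends strongly on how reads in the overlap were assigned.

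**Figure D2:**
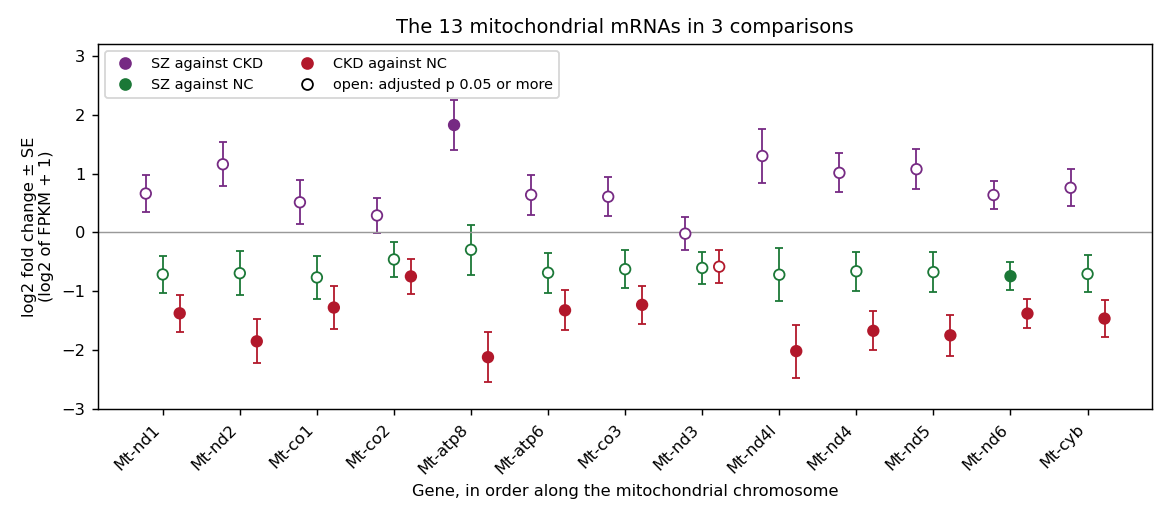
Log2 fold change ± SE of each mitochondrial mRNA, in gene order along the mitochondrial chromosome, for SZ against CKD, SZ against NC and CKD against NC (6 libraries a group). Filled points have a limma adjusted p under 0.05. In CKD against NC 12 genes are filled and below 0, Mt-nd3 is open, and in SZ against CKD Mt-atp8 is the filled point.

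The mitochondrial median in CKD against NC stayed below 0 under the scalings run. It was -0.92 with TPM and -1.03 on plain library totals. Under each 11 genes were called lower, against 1281 and 1730 of all 13851 tested genes. With no filter on low values the changes were the same but 5 genes were called, and Mt-nd1, Mt-nd4, Mt-cyb, Mt-co1, Mt-co2, Mt-co3 and Mt-atp6 were not. The same scalings moved the median of all tested genes to 0.34 and 0.25. Without CKD 2, CKD 5 and SZ 3 all 13 were called lower, with a median of -1.44, against 26.4% of all tested genes.

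Complex II, the only complex without a mitochondrial gene, fell as a whole in the deposited scaling. All 4 subunits were called lower in CKD than in NC, with a median of -0.77, against 26.0% of all tested genes. After the length correction all 4 were again lower, with a median of -0.80, against 24.6%. With TPM scaling Sdhb and Sdhd, at -0.04 and -0.31, were not called, where the median of all tested genes was 0.34. In all 4 genes the highest CKD library lay below the lowest NC library, where 12.2% of all tested genes had such ranges. Sdha, the flavoprotein that oxidises succinate (chromosome 1, 28940164 to 28961535), had 148, 140, 130, 151, 136 and 118 FPKM in SZ 1 to SZ 6, against 135, 132, 85.4, 73.4, 77.4 and 120.6 FPKM in CKD 1 to CKD 6 and 178 to 198 FPKM in NC libraries (median 188). SZ libraries lay between NC and the lower CKD libraries. The change of Sdha was -0.89 ± 0.14 in CKD against NC (limma adjusted p = 5.85e-05) and 0.44 ± 0.14 in SZ against CKD (limma adjusted p = 0.0548), which was not called.

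Sdhc and Sdhd are the membrane anchors of complex II, and Sdhb carries its iron-sulphur clusters. Sdhc ranged from 212 to 280 FPKM in SZ, from 123 to 302 FPKM in CKD and from 316 to 353 FPKM in NC libraries, a change of -0.78 ± 0.17 in CKD against NC (limma adjusted p = 0.00109). Sdhd ranged from 129 to 174 FPKM in SZ, from 73.2 to 184 FPKM in CKD and from 191 to 225 FPKM in NC libraries, a change of -0.77 ± 0.17 (limma adjusted p = 0.00118). The highest CKD library in each of these genes came close to NC without reaching it. Sdhb changed least, by -0.50 ± 0.14 (limma adjusted p = 0.00523). SZ libraries also stayed below every NC library in all 4 genes.

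Nuclear complex I fell in part. Of 35 tested members 15 were called lower in CKD than in NC, none higher, with a median of -0.35, where 26.0% of all tested genes were called lower. With the length correction 27 were lower, with a median of -0.51, against 24.6% of all tested genes. Ndufs1, the largest subunit of the NADH-oxidising arm (chromosome 9, 64546225 to 64579893), ranged from 94.4 to 126 FPKM in SZ libraries (median 109.7), from 48.1 to 113 FPKM in CKD libraries (median 85.2) and from 131 to 164 FPKM in NC libraries (median 142). Both adenine groups lay wholly below NC, and CKD 4 and CKD 5 were lowest. The change of Ndufs1 was -0.90 ± 0.17 in CKD against NC (limma adjusted p = 0.000321) and 0.49 ± 0.17 in SZ against CKD (limma adjusted p = 0.0728).

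Rows that look like gene copies need care. The lowest complex I change, -1.05 ± 0.36 (limma adjusted p = 0.0209), belonged to Ndufa10l1 on chromosome 6, an intronless row that may share reads with the row of the same name on chromosome 9, itself at -0.63. That call was lost without CKD 2 (-0.88) and, separately, without CKD 6 (-0.88). The highest, 0.30 (limma adjusted p = 0.295), belonged to Ndufs6, a row typed as a pseudogene with 2 to 23 reads per library. Leaving out the 5 tested copy rows gave 30 of 69 nuclear members lower and 1 higher, with a median of -0.37. The rows named Ndufa7 and Ndufb2 on chromosome 4 carry the descriptions of CD320 and aarF domain kinase 2, and the protein matched to Ndufa1 is that of RNF113A, so their values may be those of other genes.

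Complex III members spread widely. Of 7 tested nuclear members 3 were called lower in CKD than in NC, with a median of -0.29, against 26.0% of all tested genes, and all 7 after the length correction, with a median of -0.48, against 24.6%. Uqcrc2, a core subunit of the matrix side (chromosome 1, 175167894 to 175199453), ranged from 92.0 to 121 FPKM in SZ libraries (median 110.6), from 53.0 to 113 FPKM in CKD libraries (median 82.6) and from 129 to 157 FPKM in NC libraries (median 139). CKD 1, at 113 FPKM, was the CKD library within the SZ range, while the other CKD libraries were at 86.5 FPKM or less. The change of Uqcrc2 was -0.88 ± 0.15 in CKD against NC (limma adjusted p = 0.000127), and it rose in SZ against CKD by 0.50 ± 0.15 (limma adjusted p = 0.0448).

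Uqcrfs1, the Rieske iron-sulphur protein of complex III, changed by -0.58 ± 0.18 in CKD against NC (limma adjusted p = 0.0109). Uqcrq, a small subunit whose row is 400 bases long, stood at the other end. It ranged from 196 to 361 FPKM in SZ, from 201 to 523 FPKM in CKD and from 217 to 340 FPKM in NC libraries, with CKD 5 highest, a change of -0.03 ± 0.21 (limma adjusted p = 0.910). After the length correction Uqcrq was at -0.38 and called lower (limma adjusted p = 0.00570). With TPM scaling it was at 0.42, where the median of all tested genes was 0.34.

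Complex IV held the nuclear member that was called higher. Of 13 tested nuclear members 4 were called lower in CKD than in NC and 1 higher, with a median of -0.29, a share near the 26.0% of all tested genes called lower. Corrected for length, 9 were lower and 1 higher, with a median of -0.38, against 24.6% of all tested genes lower. Ndufa4, first assigned to complex I and now counted with complex IV, ranged from 78.3 to 121 FPKM in SZ, from 40.8 to 112 FPKM in CKD and from 107.0 to 139 FPKM in NC libraries, and only CKD 1 reached the NC range. It changed by -0.85 ± 0.18 (limma adjusted p = 0.000817). Cox7b, a small structural subunit, changed by -0.61 ± 0.20 (limma adjusted p = 0.0145). Cox4i1, the common isoform of the regulatory subunit 4, was at -0.14 ± 0.17 (limma adjusted p = 0.517), with 121 to 278 FPKM in CKD libraries around the 196 to 220 FPKM of NC libraries.

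Cox7a2l, a factor that joins complexes III and IV into supercomplexes, was singled out after its values were seen. It had 57.6, 62.2, 75.6, 58.9, 58.5 and 53.4 FPKM in SZ 1 to SZ 6, against 88.4, 77.4, 72.5, 56.4, 108 and 61.0 FPKM in CKD 1 to CKD 6 and 51.4 to 60.9 FPKM in NC libraries. CKD 5 was highest and CKD 4 lay within NC, and the change was 0.40 ± 0.13 (limma adjusted p = 0.0177). It was 0.32 after the length correction, still called, and 0.26 without CKD 2, CKD 5 and SZ 3, where it was not.

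Isoform pairs of complex IV are known to differ by tissue and oxygen. Cox4i2, the isoform linked to low oxygen in lung, ranged from 0.32 to 5.24 FPKM in SZ, from 0.65 to 5.16 FPKM in CKD and from 0.96 to 1.77 FPKM in NC libraries, a change of 0.47 ± 0.31 (limma adjusted p = 0.219). Ndufa4l2, a paralog of Ndufa4 induced by low oxygen, was at -0.23 (limma adjusted p = 0.404). The muscle isoforms Cox6a2 and Cox7a1 had 0 to 17 and 4 to 18 reads per library and were not tested. Cox6a1, the partner of Cox6a2 outside muscle, was at -0.05 ± 0.19 (limma adjusted p = 0.839) in CKD against NC. It was at -0.35 and called after the length correction. With TPM scaling it was at 0.40, where the median of all tested genes was 0.34. Cox7a2, Cox8a and Cox8b were not analysed here under those names, although the row named Cox7a2l2 on chromosome 8 carries the description of Cox7a2, with a change of -0.44 (limma adjusted p = 0.0462).

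In complex V, 5 of 15 tested nuclear members were called lower in CKD than in NC, none higher, with a median of -0.40, a share near the 26.0% of all tested genes. With lengths corrected, 12 were lower, with a median of -0.57, against 24.6%. The catalytic head led. Atp5f1a, its alpha subunit (chromosome 18, 71292374 to 71300794), ranged from 693 to 886 FPKM in SZ libraries (median 857), from 435 to 879 FPKM in CKD libraries (median 677) and from 998 to 1182 FPKM in NC libraries (median 1098). Both adenine groups lay below every NC library, and CKD 4 was lowest. Its change was -0.72 ± 0.16 (limma adjusted p = 0.00108), and that of Atp5f1b, the beta subunit, -0.61 ± 0.18 (limma adjusted p = 0.00999).

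Atp5if1 is the inhibitor that binds the enzyme when the proton gradient fails. It ranged from 141 to 253 FPKM in SZ, from 108 to 286 FPKM in CKD and from 156 to 206 FPKM in NC libraries, with CKD 4 lowest and CKD 5 highest of all libraries. Its change was 0.07 ± 0.20 (limma adjusted p = 0.779), and -0.26 after the length correction (limma adjusted p = 0.0621). Its row is 482 bases long, and its sign differed between the deposited and the corrected values.

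**Figure D3:**
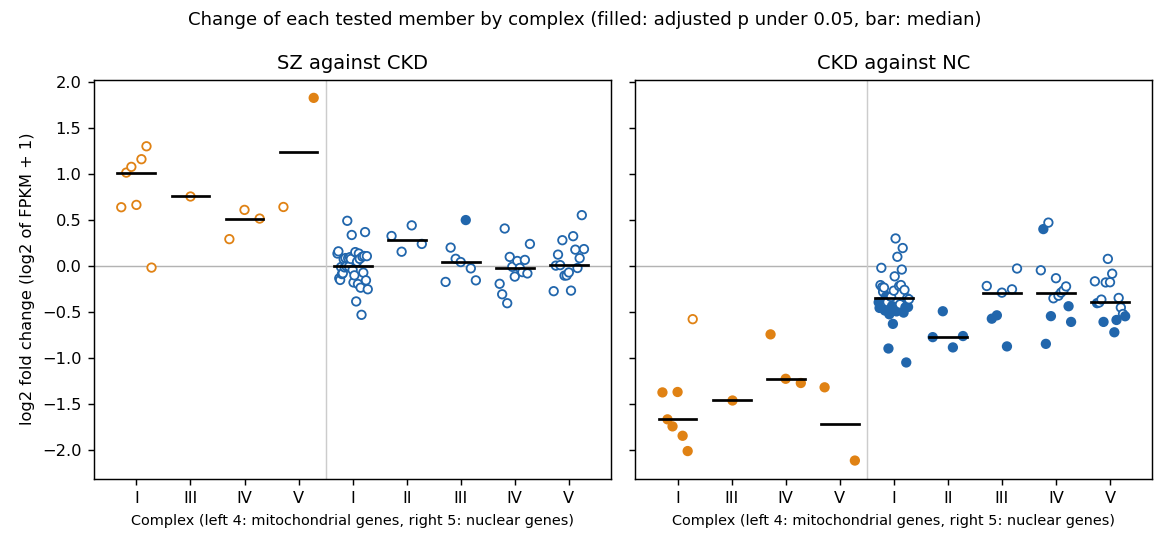
Log2 fold change of each tested member in SZ against CKD (left) and CKD against NC (right), by complex, with mitochondrial genes in orange and nuclear genes in blue. Filled points have a limma adjusted p under 0.05 and bars mark medians. In CKD against NC the mitochondrial median lies lower than the nuclear median of the same complex, at -1.67 and -0.35 in complex I, while single genes such as Mt-nd3 and Mt-co2 lie among the nuclear ones.

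Within each complex that draws on both genomes, the mitochondrial median was lower than the nuclear one in CKD against NC. The medians were -1.67 and -0.35 in complex I, -1.46 and -0.29 in complex III, -1.23 and -0.29 in complex IV, and -1.72 and -0.40 in complex V, with the mitochondrial one first. After the length correction they were -1.75 and -0.51, -1.60 and -0.48, -1.33 and -0.38, and -2.07 and -0.57. No test was made of the difference between the genomes. The direction of the nuclear members was not the same under every scaling. Their median in CKD against NC was 0.076 with TPM and -0.03 on plain library totals. With TPM 5 were called lower and 8 higher, against 1281 lower and 6591 higher of all 13851 tested genes. On plain totals 7 were lower and 1 higher, against 1730 lower and 5982 higher of all tested genes. Relative to all tested genes under the same scaling these medians were -0.26 and -0.27. When the mitochondrial chromosome was left out of the TPM sum, the nuclear median was -0.24.

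**Figure D4:**
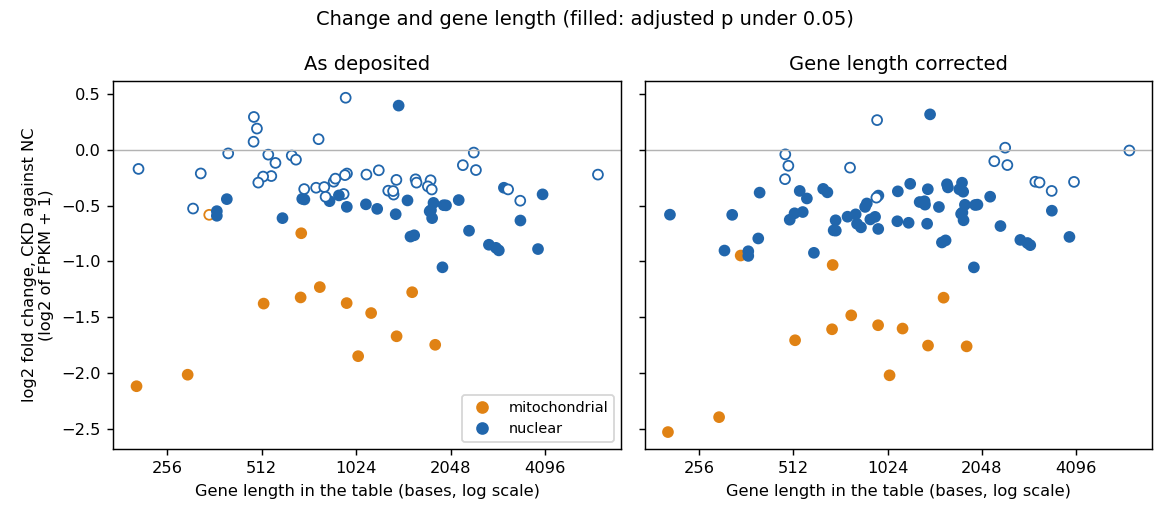
Log2 fold change in CKD against NC of each tested member against gene length (log scale, bases), for the deposited values (left) and after the gene length correction (right), with mitochondrial genes in orange and nuclear genes in blue. Filled points have a limma adjusted p under 0.05. Nuclear members under 1000 bases have a median of -0.27 as deposited and -0.58 after the correction.

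The number of nuclear members called moved with gene length. Over the 74 tested nuclear members Spearman's rho between length and change in CKD against NC was -0.37 as deposited and 0.19 after the correction, a description across genes that share libraries. Of 34 members under 1000 bases 9 were called lower as deposited, with a median of -0.27, a share near the 26.0% of all tested genes. After the correction 28 were called lower, with a median of -0.58, against 24.6% of all tested genes. Of 40 members of 1000 bases or more, 22 were called lower and 1 higher as deposited, with a median of -0.45, and 31 lower and 1 higher after it, with a median of -0.48. In all, 59 of 74 nuclear members were called lower after the correction and 1 higher, with a median of -0.50, against 24.6% of all tested genes lower. Without CKD 2, CKD 5 and SZ 3, and with no correction, 59 were lower and none higher, with a median of -0.56, against 26.4% of all tested genes lower.

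**Figure D5:**
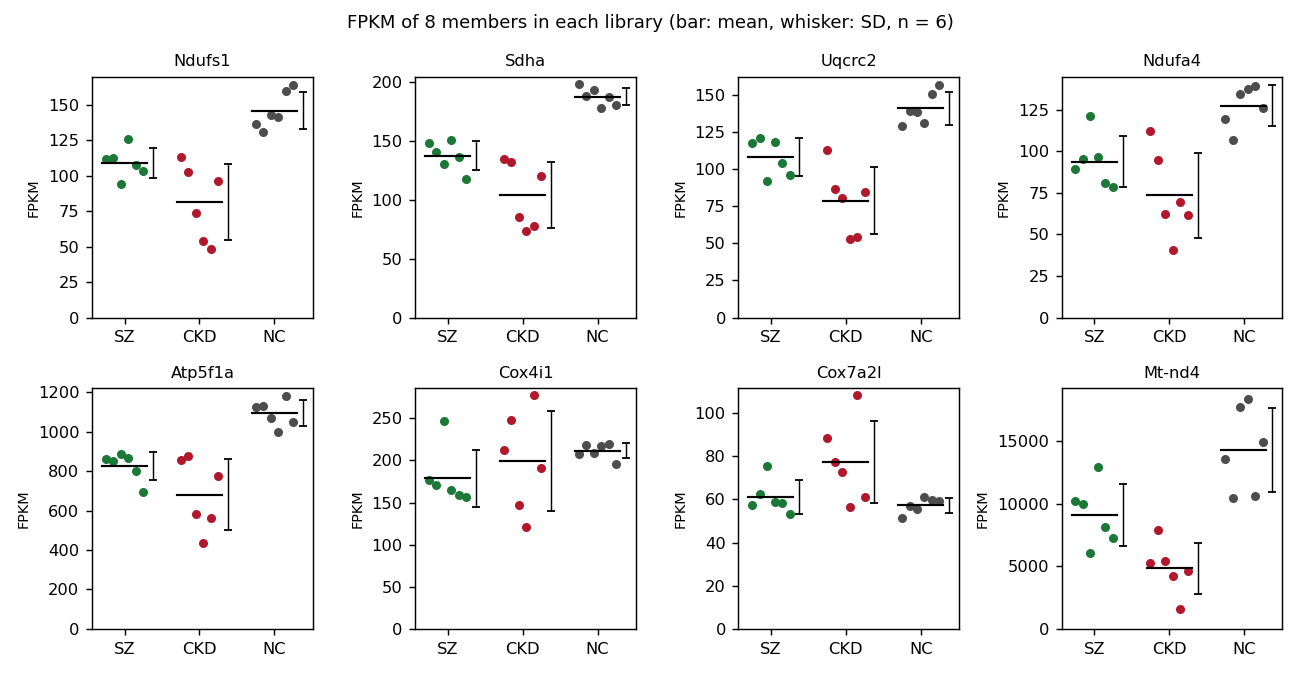
FPKM of 8 members in each library of the SZ, CKD and NC groups, with the mean as a bar and the SD as a whisker (n = 6 libraries each). Ndufs1, Sdha, Uqcrc2 and Atp5f1a in SZ and CKD lie below every NC library, Cox4i1 overlaps in all groups, and Cox7a2l is highest in CKD 5.

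With SZ-A added to adenine, few members were called against CKD. Of the 13 mitochondrial genes 12 had a change above 0 in SZ against CKD, with a median of 0.66. No member of either genome had SZ wholly above or below CKD, as 0.628% and 1.63% of all tested genes did. Among the mitochondrial genes Mt-atp8 was the only one called, where 4.16% of all tested genes were called higher and 6.82% lower and the median of all tested genes was 0.01. Among the rest the largest were Mt-nd4l at 1.30 (limma adjusted p = 0.0674), Mt-nd2 at 1.16 ± 0.37 (limma adjusted p = 0.0523) and Mt-nd5 at 1.07 ± 0.34 (limma adjusted p = 0.0509). The length correction gave 4 called higher, Mt-nd2, Mt-nd4, Mt-nd6 and Mt-atp8, against 5.75% of all tested genes higher and 9.21% lower. Without CKD 2, CKD 5 and SZ 3 it was 6 genes, against 4.87%.

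The nuclear members in SZ against CKD had a median of 0.02, with 36 below 0 and 38 above. Uqcrc2 was the only one called, where 4.16% of all tested genes were called higher and 6.82% lower. The lowest change was -0.53 for Ndufs5 on chromosome 2, an intronless row (limma adjusted p = 0.136), and next -0.41 for Cox4i2. The highest was 0.55 for Atp5mk on chromosome 10, an intronless row with 7 to 42 reads per library (limma adjusted p = 0.155). After the length correction the median was 0.19 and 5 were called higher, against 5.75% of all tested genes. These were Ndufb10, Ndufb4, Uqcrc2 and the rows named Atp5mk on chromosomes 1 and 10. Without CKD 2, CKD 5 and SZ 3 none was called and the median was 0.10, and the call of Uqcrc2 was also lost with TPM (0.35), in the fit of SZ and CKD alone and on leaving out most single libraries, for example CKD 4 (0.39) or CKD 5 (0.40).

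SZ kidneys remained lower than NC kidneys in most members, with few calls. All 13 mitochondrial genes had a change below 0, with a median of -0.69, and Mt-nd6 fell by 0.74 ± 0.24 (limma adjusted p = 0.0359), where 8.61% of all tested genes were called lower. Of the 74 nuclear members 70 were below 0, with a median of -0.35 against -0.04 for all tested genes, and 4 were called lower: Ndufa1, Sdha, Sdhd and Cox7a2l2. SZ lay wholly below NC in 11 nuclear members, among them the 4 subunits of complex II, against 5.70% of all tested genes. The number of nuclear calls depended on the fit. It was 31 after the length correction, against 8.86% of all tested genes, and 42 without CKD 2, CKD 5 and SZ 3, against 12.6%. It was 46 when SZ and NC alone were fitted, against 1917 of all 13851 tested genes. With TPM scaling it was 0, against 266, and the nuclear median was -0.047 where that of all tested genes was 0.22. It was also 19 without CKD 4, 10 without CKD 1, 9 without SZ 3 and 8 without CKD 5. Of all tested genes these 4 fits called 1314, 1410, 1051 and 1451 lower. The call of Mt-nd6 was lost without 10 single libraries, 5 of SZ and 5 of NC.

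Genes that serve oxidative phosphorylation from outside the rule were described from lists by function, to be read against the 26.0% of all tested genes called lower in CKD than in NC, or 24.6% after the length correction. Of 11 tested carriers and other chain components 6 were called lower, none higher, with a median of -0.36, and 7 after the correction. Cycs, cytochrome c itself, averaged 285 ± 47.9 FPKM in SZ, 187 ± 85.2 FPKM in CKD and 435 ± 92.4 FPKM in NC libraries (SD, n = 6 each), a change of -1.29 ± 0.23 in CKD against NC (limma adjusted p = 0.000128). Cyc1, the cytochrome c1 of complex III that the naming rule does not take, changed by -0.36 ± 0.12 (limma adjusted p = 0.0210). In SZ against CKD 1 of the 11 was called higher, with a median of 0.04, against 4.16% of all tested genes.

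Assembly factors, which build the complexes without staying in them, were called lower in CKD than in NC for 13 of 32 tested rows and higher for none, with a median of -0.31, against 26.0% of all tested genes lower. The length correction gave 18 lower and 1 higher. Lyrm7, which binds the Rieske protein before its insertion into complex III, averaged 7.45 ± 1.37 FPKM in SZ, 4.90 ± 1.26 FPKM in CKD and 10.6 ± 1.58 FPKM in NC libraries (SD, n = 6 each). Its change was -0.99 ± 0.14 in CKD against NC (limma adjusted p = 2.05e-05) and 0.53 ± 0.14 in SZ against CKD (limma adjusted p = 0.0264). At the other end of the calls stood Coa7, a complex IV assembly factor, at -0.36. Surf1, Coa3 and a second row of Sdhaf1 were listed at 0 in every library.

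The machinery that copies, transcribes and processes mitochondrial DNA was called lower in CKD than in NC for 9 of 21 tested genes and higher for none, with a median of -0.28, against 26.0% of all tested genes lower, and the count was also 9 after the length correction. Tfb2m, which opens the promoters of mitochondrial DNA, changed by -0.75 ± 0.15 (limma adjusted p = 0.000366), and Elac2, which trims tRNA ends from the precursors, by -0.28 ± 0.11 (limma adjusted p = 0.0435). In coenzyme Q synthesis 5 of 11 genes were lower and 1 higher, with Coq8a at -0.97 and Coq8b at 0.53, both called, and 4 lower and 1 higher after the correction. Of 10 genes of other mitochondrial functions 7 were lower and none higher, with a median of -0.52, and again 7 after the correction, with a median of -0.46. The chaperone Hspa9 changed most, by -0.84, and Chchd3 least among those called, by -0.37. Tomm20, Tomm22 and Tomm40, at -0.34, 0.11 and 0.04, were not called.

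Markers of other cells moved with the same groups. In CKD against NC 11 of 13 proximal tubule genes, 7 of 7 thick limb and distal genes, 5 of 6 collecting duct genes and 4 of 4 podocyte genes were called lower and none higher, against 26.0% of all tested genes lower, while 10 of 10 macrophage and 7 of 7 fibroblast genes were called higher, against 24.4%. Summed macrophage markers were at 452 to 1057 FPKM in SZ, 1143 to 2529 FPKM in CKD and 112 to 214 FPKM in NC libraries. In SZ against CKD, where 4.16% of all tested genes were called higher and 6.82% lower, 8 of 13 proximal tubule genes and 3 of 6 collecting duct genes were called higher, and 0 of 7 thick limb and distal genes and 0 of 4 podocyte genes were called. In the same comparison 9 of 10 macrophage genes and 3 of 7 fibroblast genes were called lower. The part of these cell types in the levels of the members was not tested.

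Promoters of nuclear subunit genes are known to bind NRF1, GABPA (an ETS factor) and YY1. Promoter windows of 300 bases came from RefSeq, build GRCr8, in which 67 of 75 nuclear member symbols, copies aside, were matched, and the stretches below are shown because they carry motif matches in genes named above. Capitals mark a match, on either strand, to the NRF1 core GCGCANGCG or the GABPA core CCGGAAG.
Sdha, chr1:30764444-30764525, + strand: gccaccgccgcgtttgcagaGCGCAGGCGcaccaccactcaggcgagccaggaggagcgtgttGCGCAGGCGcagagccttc
Sdhb, chr5:158547806-158547885, + strand: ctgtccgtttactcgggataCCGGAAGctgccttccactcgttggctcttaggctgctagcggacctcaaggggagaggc
Sdhd, chr8:59850642-59850709, - strand: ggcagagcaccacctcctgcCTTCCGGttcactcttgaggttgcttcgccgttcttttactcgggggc
Ndufs1, chr9:72073745-72073824, - strand: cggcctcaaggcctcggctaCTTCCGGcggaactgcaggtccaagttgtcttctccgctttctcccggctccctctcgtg
Uqcrc2, chr1:184599103-184599228, + strand: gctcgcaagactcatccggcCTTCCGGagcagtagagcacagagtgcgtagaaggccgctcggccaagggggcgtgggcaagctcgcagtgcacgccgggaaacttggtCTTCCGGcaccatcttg
Atp5f1a, chr18:73567457-73567536, + strand: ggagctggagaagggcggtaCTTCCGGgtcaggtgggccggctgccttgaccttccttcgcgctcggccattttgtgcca
Uqcrq, chr10:38089979-38090020, - strand: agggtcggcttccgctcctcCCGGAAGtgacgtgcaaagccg
Cox7a2l, chr6:16936541-16936573, + strand: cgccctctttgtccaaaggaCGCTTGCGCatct

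The GABPA core was found in 19 of 67 member windows (28.4%) and in 8.75% of all 33469 windows, the NRF1 core in 16 (23.9%) and in 5.80% of all, and the YY1 core AAGATGGCG in 9 (13.4%) and in 1.73% of all. Split by the call in CKD against NC, the GABPA core was in 7 of 27 windows of members called lower and in 12 of 34 of members not called, the NRF1 core in 5 of 27 and 10 of 34, and the YY1 core in 3 of 27 and 6 of 34. Uqcrq, which was not called, and Uqcrc2, which was lower, both hold the GABPA core, and Sdhc, also lower, holds none of these letters in its window. A match is a description of the sequence and not a bound site.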

How the data were processed

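Kidney RNA was extracted with Trizol and made into TruSeq libraries, per the labels' protocols. Reads were aligned with HISAT2 2.0.5 to mRatBN7.2, per the submitters' processing notes, while no source names the counter, its strand setting or the annotation release. The authors deposited 1 table of FPKM values with gene lengths for 18 libraries. Multiplying FPKM by length and 1 constant per library gave whole reads for 100% of values (tolerance 0.01 reads) in every library. These recovered reads served for depth, read shares and the alternative fits on plain library totals, with the trimmed mean of M-values and with voom.

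Genes with FPKM of at least 1 in at least 6 libraries were tested with limma 3.58.1 (R 4.3.3) on log2(FPKM + 1) with an intensity trend, in 1 fit of the 3 groups, with 2-sided p-values adjusted by Benjamini-Hochberg over all tested genes and called under 0.05. The length correction subtracted a lowess curve (span 0.3) of each library's deviation from the mean over libraries against log2 length, fitted on genes that are not members with mean FPKM of at least 5. Alternatives were other pseudocounts, filters, scalings, weights, variance models, fits and left-out libraries.

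The members, lists and tests were chosen with earlier results of these data known. Named genes are the 13 mitochondrial genes, complex II, the 2 lowest and 1 highest changes in CKD against NC in each other complex, the 2 lowest and 2 highest in SZ against CKD, isoform pairs, Atp5if1, and the lowest and highest called gene of the other lists, apart from some named for context with their calls. Of 12 members not tested, 4 were at 0 in every library. Adipose and erythrocyte marker lists had 2 and 1 tested genes, with 1 lower and 1 higher in the adipose list and 1 lower in the erythrocyte list, in CKD against NC.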

Additional observations from a re-analysis of the deposited data

Results flagged for a closer look

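Of 114 groups of 6 values screened among the named members and library measures, 14 held a library that stood far from the other 5. Chance flags about 1 in 20 groups, but these groups share libraries and some genes were named for extreme changes. The 14 can therefore not be weighed against that rate. SZ 3 was high in 7 of the 14. It had 174.5 FPKM of Sdhd (128.8 to 143.3 in the other SZ libraries), 246.5 FPKM of Cox4i1 (156.6 to 176.7), 5.24 FPKM of Cox4i2 (0.32 to 1.57), 4.23 FPKM of Ndufa4l2 (1.25 to 2.27), 252.8 FPKM of Atp5if1 (141.3 to 176.0) and 1.82 FPKM of Ndufs6 (1.39 to 1.55). Nuclear members took 1.84% of the reads of SZ 3, against 1.33% to 1.46% in the other SZ libraries. SZ 3 has a length slope of -0.25, and the part of that slope in these values was not tested.

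Among CKD libraries, CKD 2 had 32421 FPKM of Mt-atp6 (9981 to 16663 in the others) and 2638 FPKM of Mt-nd6 (923 to 1384). CKD 5 had 414 FPKM of Mt-nd4l (2273 to 3198) and 425 FPKM of Mt-nd5 (1455 to 1910). CKD 1 had 206 FPKM of Mt-atp8 (32.8 to 83.4). Among NC libraries, NC 1 had 316 FPKM of Sdhc (342 to 353), and NC 5 had 2161 FPKM of Atp5f1b (1741 to 1877).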

How the results depend on the processing

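Counts of called members moved with gene length, scaling and spread. Nuclear members lower in CKD than in NC (31) were 5 with TPM scaling, 7 on plain totals, 12 at an adjusted p under 0.01, 59 after the length correction, 59 without CKD 2, CKD 5 and SZ 3, 65 with both, 59 with length correction and TPM, 60 with array weights and 57 with the replicate block and length correction. Those higher (1) were 3 with no low-value filter, 8 with TPM, 0 without the 3 libraries and 0 at 0.01. Their median (-0.36) was 0.076 with TPM, where that of all tested genes was 0.34. Mitochondrial genes lower (12) were 5 with no low-value filter. Of all 13851 tested genes, 3595 were lower in the main fit, 1281 with TPM, 1730 on plain totals and 2480 at 0.01. The length correction gave 3409, leaving out the 3 libraries 3653, both 3065 and length correction with TPM 3839. Array weights gave 3966, and block with correction 3240. With no low-value filter 3891 of 23814 were lower and 4198 higher. Higher were 3378 in the main fit, 6591 with TPM, 3306 without the 3 libraries and 2596 at 0.01.

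In SZ against CKD, nuclear members lower (0) were 2 with TPM and 1 on plain totals. Of all 13851 tested genes, 945 were lower in the main fit, 1708 with TPM and 1752 on plain totals. Nuclear members higher (1) were 0 with no filter, TPM, plain totals, 2 groups alone, the replicate block, without the 3 libraries and at 0.01, 5 after the length correction with or without TPM, 4 with array weights and 3 with block and correction. Mitochondrial genes higher (1) were 4 at mean FPKM of at least 5, with the length correction, with voom, no trend, robust variance, block with correction, and correction with TPM. They were 3 with TPM and with the trimmed mean of M-values, 2 on plain totals, 7 with array weights, 6 without the 3 libraries with or without correction, and 0 at 0.01. Of all tested genes, 576 were higher in the main fit, 291 with TPM, 382 on plain totals, 143 with 2 groups alone and 65 at 0.01. The length correction gave 797, and 920 with TPM. Array weights gave 1279, and the block 425, or 628 with correction. Leaving out the 3 libraries gave 674, and 558 with correction. Voom gave 686, the trimmed mean 666, no trend 571 and robust variance 578. No filter gave 338 of 23814, and mean FPKM of at least 5 gave 522 of 8491.

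In SZ against NC, nuclear members lower (4) were 0 with TPM, plain totals and at 0.01, 1 with the trimmed mean and voom, 31 after the length correction, 46 with 2 groups alone, 65 with array weights, 26 with block and correction, 42 without the 3 libraries, 43 with correction as well, and 29 with correction and TPM. Those higher (0) were 1 with no filter and 1 with TPM. Their median (-0.35) was -0.047 with TPM and -0.13 on plain totals, where that of all tested genes was 0.22 and 0.15. Mitochondrial genes lower (1) were 0 with no filter, TPM, plain totals and at 0.01, 2 with correction, no trend, and correction with TPM, 7 with 2 groups alone and 10 with array weights. Of all 13851 tested genes, 1193 were lower in the main fit, 266 with TPM, 379 on plain totals and 352 at 0.01. The length correction gave 1227, or 1307 with TPM and 1069 with the block. Fitting 2 groups alone gave 1917, array weights 2776, the trimmed mean 889, voom 794 and no trend 1178. Leaving out the 3 libraries gave 1752, and 1493 with correction. With no filter 1129 of 23814 were lower and 1771 higher, and with TPM 3431 were higher. Mitochondrial mRNAs took 13.96% of reads in SZ, 10.2% in CKD and 19.3% in NC on average, and 29.3%, 21.65% and 37.4% of summed FPKM.

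Among the named genes, signs that turned were all of changes not called, and the other members were not examined for this. In CKD against NC, TPM and plain totals gave 0.32 and 0.21 for Cox4i1, 0.40 and 0.30 for Cox6a1, 0.090 and 0.011 for Ndufa4l2, and 0.42 and 0.31 for Uqcrq. The median of all tested genes was 0.34 and 0.25 under these scalings. Leaving the mitochondrial chromosome out of the sum gave 0.074 for Cox6a1 and 0.093 for Uqcrq. Correction, array weights, leaving out the 3 libraries, that with correction, and correction with TPM gave -0.26, -0.091, -0.14, -0.25 and -0.24 for Atp5if1 and -0.14, -0.14, -0.12, -0.23 and -0.16 for Ndufs5 on chromosome 2. Ndufs6 was -0.040 with correction, -0.031 without the 3 libraries as well and -0.23 with correction and TPM. Mt-nd3 in SZ against CKD was 0.00439 with the trimmed mean, 0.27 with correction, 0.23 with array weights, 0.20 and 0.38 without the 3 libraries, before and after correction, and 0.26 with correction and TPM.

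Leaving out 1 library at a time gave, in CKD against NC, 21 to 38 nuclear members lower and 1 to 1 higher (medians -0.45 to -0.25), and 11 to 13 mitochondrial genes lower and 0 higher (-1.60 to -1.27). In SZ against CKD it gave 0 to 1 nuclear lower, 0 to 5 higher (-0.10 to 0.11), 0 mitochondrial lower and 1 to 5 higher (0.56 to 0.87). In SZ against NC it gave 0 to 19 nuclear lower, 0 higher (-0.42 to -0.32), 0 to 1 mitochondrial lower and 0 higher (-0.81 to -0.61). Of all 13851 tested genes, these fits called 3242 to 3881 lower and 3130 to 3519 higher in CKD against NC. In SZ against CKD they called 370 to 1590 lower and 163 to 1468 higher. In SZ against NC they called 735 to 1451 lower and 1451 to 1914 higher. Read shares were 13.1% to 14.6% in SZ, 9.08% to 11.1% in CKD and 18.3% to 20.2% in NC. Among the turned signs, the ranges were -0.16 to 0.050 for Cox6a1, -0.052 to 0.23 for Atp5if1, -0.21 to 0.062 for Uqcrq, -0.0080 to 0.30 for Ndufs5 and -0.22 to 0.16 for Mt-nd3.

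Replicate numbers do not pair the libraries: same-numbered deviations correlated at -0.36 to 0.23 over 18 pairs, 4 of them over 0.1, and 3 libraries correlated best with their own number. The replicate block could not move a fold change or its sign, since every group holds the same replicate numbers, so the unchanged signs test nothing. Of 1866 values of single genes under the alternatives, 1672 kept their sign and their side of the threshold and 47 changed sign. Leaving out CKD 1, CKD 2 or SZ 3 alone gave 5, 4 and 5 mitochondrial genes higher in SZ than in CKD, and CKD 1, CKD 2, CKD 6 or SZ 3 alone gave 5, 2, 2 and 3 nuclear ones. Of all 13851 tested genes, leaving out CKD 1, CKD 2, CKD 6 or SZ 3 gave 1213, 506, 565 and 1468 higher. The combinations of length correction with TPM and with the 3 left-out libraries were added after seeing the data. The causes of these differences were not tested.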
